A study of Homo sapiens with 10 samples.

Results

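The genes described here are 49 genes of the G1/S transition and of DNA replication, out of 57993 gene symbols measured in HCT116 cells. HCT116 is a human colorectal carcinoma line. The 49 were chosen by function, from a fixed list of genes that act at entry into S phase, in the loading and firing of replication origins, at the replication fork, in the supply of nucleotides and on newly made chromatin. All 49 were found in the data by symbol, and all 49 were among the 17779 genes kept after low values were filtered out.

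In G1, E2F transcription factors are held back by the RB family of pocket proteins. Cyclin D and cyclin E kinases phosphorylate RB, E2F factors are released, and a set of genes needed for S phase is transcribed. Origins are licensed when the origin recognition complex, CDC6 and CDT1 load the MCM2-7 helicase onto DNA, and the helicase is then activated together with CDC45 and the GINS complex. KDM5A, first known as a protein that binds RB, demethylates histone H3 at lysine 4, a position whose methylation marks active promoters.

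The series holds 10 RNA sequencing libraries in 4 groups. In 2 libraries, KDM5A-/- HCT116 cells carried a plasmid for a mutant KDM5A, whose mutation the labels do not name. In 3 libraries, KDM5A-/- cells carried a plasmid for wild-type KDM5A. In another 3, KDM5A-/- cells carried an empty vector, and in 2, parental HCT116 cells carried an empty vector. In every group, GFP-positive cells were sorted 24 h after transfection and total RNA was taken with Trizol. Both lines were purchased, and the labels do not say whether the knockout line is a single clone. The knockout culture was kept with G418 and the parental culture without it, so genotype, line history and G418 cannot be told apart in any comparison of the lines. The labels do not tell whether replicate libraries are separate cultures, and p-values here cover the spread among the libraries at hand, which may be technical.

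Levels below are called scaled FPKM after the file headers. FPKM counts fragments per exonic length and library size, but off the log2 scale the deposited values sum to about the same total in every library. The deposited values were taken off the log2 scale and each library was then scaled by its own factor. The number of reads behind them is unknown. A gene passed, and is said to have risen or fallen, where its adjusted p in limma over all 17779 genes was under 0.05. Fold changes are differences of log2(scaled FPKM + 1), and errors beside them are standard errors.

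KDM5A itself had 23346 and 22816 scaled FPKM with the mutant plasmid, 13453, 16237 and 15598 with the wild-type plasmid, 12.2, 15.3 and 12.3 in knockout cells with empty vector, and 13.3 and 17.7 in parental cells. Both plasmids were thus expressed far above the endogenous gene. The whole-gene value was not lower in knockout than in parental cells beyond the spread (log2 fold change −0.20, adjusted p = 0.391), so it does not check the knockout label. The epithelial markers EPCAM, KRT8, KRT18, KRT19, CDH1 and CLDN4 were high in all 10 libraries, with medians of 54.8 to 1734 scaled FPKM, and the intestinal marker VIL1 was near 0 (0.0440 to 0.445). Of the 7 fibroblast and muscle markers, COL1A1 (13.5 to 28.7), ACTA2 (10.8 to 25.5) and DES (1.96 to 5.09) were measured in every library, while COL1A2, COL3A1, DCN and LUM were at or near 0 (at most 0.184). Their sum was 35.2 in both mutant libraries, 37.2 to 43.0 with wild-type KDM5A, 35.1 to 44.4 with empty vector and 42.4 to 49.7 in parental cells, and its part in the results was not tested. The 4 endothelial markers summed to 0.466 to 1.42 over the 10 libraries. Of the leukocyte markers, CD3E was at or near 0. CD14 reached 6.42, and the 6 leukocyte markers summed to 5.93 to 7.77 with the mutant, 5.00 to 6.50 with wild-type KDM5A, 1.55 to 2.89 with empty vector and 2.33 to 3.18 in parental cells, so CD14 moved with both KDM5A plasmids, and its part in the results was not tested.

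Parental library 2 and the mutant libraries differed in make-up from the other 7. Their share of protein-coding genes was 87.9 to 88.7% of all values, against 90.1 to 90.6% elsewhere, and their share of cytosolic ribosomal protein genes was 15.3 to 16.0%, against 12.5 to 13.8%. Their part in the results below was not tested beyond the values given for fits with the ribosomal share as a covariate or without these libraries. In bulk RNA, a larger share of cells in S phase and more RNA of these genes per cell cannot be told apart.

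As a group these genes were high in knockout cells. The summed level of the 49 genes was 3311 to 3369 scaled FPKM in the knockout libraries with empty vector, against 2909 to 2942 in the parental libraries. It was 3347 to 3454 with mutant KDM5A and 3233 to 3256 with wild-type KDM5A. All 8 knockout libraries, whatever their plasmid, lay above both parental libraries in this sum. Single genes ranged in mean level from 8.05 scaled FPKM for POLD3, a subunit of DNA polymerase delta, to 390 for CCND1, cyclin D1.

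**Figure D1:**
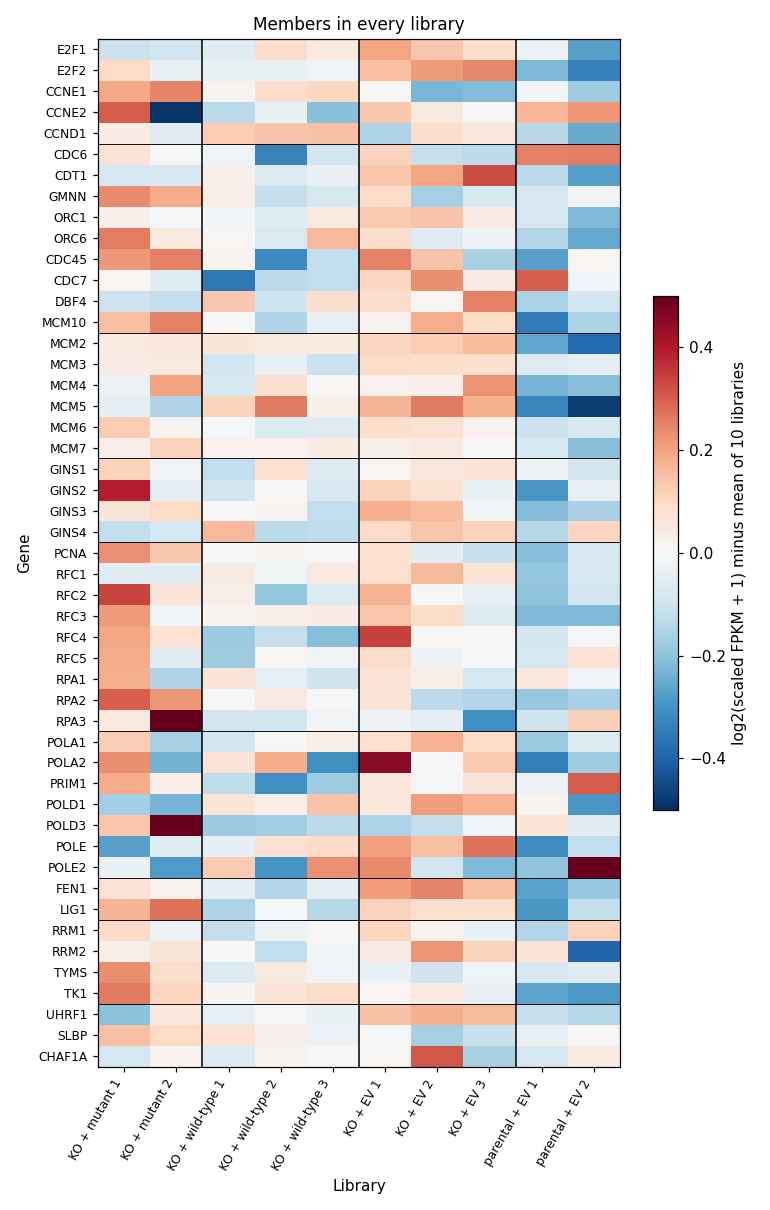
Colour map of the 49 genes (rows, ordered by role, with lines between roles) in the 10 libraries (columns, from mutant KDM5A to parental), where colour is log2(scaled FPKM + 1) minus that gene's mean over the 10 libraries and values beyond ±0.50 have the end colour. The 2 parental columns are blue, below the gene's mean, for most replication genes, and CDC6 is red there.

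Knockout cells with empty vector were compared with parental cells to see what differs between the lines. Of the 49 genes, 11 rose in knockout cells and 0 fell, which is 22.4% of them. Over all genes tested, 8.94% passed (4.84% higher and 4.09% lower). The median log2 fold change was 0.19 over the 49 genes and 0.0027 over all genes. The genes that rose were E2F2, CDT1, MCM10, MCM2, MCM5, RFC1, POLE, FEN1, LIG1, TK1 and UHRF1, by 0.24 to 0.60 on the log2 scale. Of all 49, 39 were above 0 and 10 below, and the range was −0.30 for CDC6 to 0.60 for MCM5. At an unadjusted p under 0.05, 25 of the 49 were higher (51.0%, against 13.2% of all genes) and 1 was lower (2.04%, against 12.6%). The knockout and parental values did not overlap with the knockout above in 29 of the 49 genes (59.2%, against 21.9% of all genes) and below in 2 (CCNE2 and CDC6, against 20.6% of all genes).

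The count of 11 depended on the libraries and on the fit. It was 5 without knockout empty-vector library 2 or 3 or without parental library 2, 6 without knockout empty-vector library 1, 7 without any 1 of the wild-type libraries, 3 in a fit of only these 5 libraries, and 0 with the ribosomal protein share as a covariate (15 higher and 0 lower at an unadjusted p under 0.05). MCM2, MCM5 and FEN1 passed whichever library was left out. The ribosomal protein share was 12.5 to 13.2% in these knockout libraries and 13.8 to 16.0% in the parental ones, without overlap. With this share as a covariate, 53 of all genes tested passed as higher and 43 as lower. The median log2 fold change of the 49 genes was 0.22 in that fit. With both mutant libraries and parental library 2 left out, 7 of the 11 passed and no other gene of the 49 did (FEN1, LIG1, MCM2, MCM5, POLE, TK1 and UHRF1).

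Wild-type KDM5A, whose RNA lay far above the parental level, was set against empty vector in knockout cells, to see what differs with this plasmid. Of the 49 genes, 1 fell and 0 rose: FEN1, the flap endonuclease that trims Okazaki fragments. That is 2.04%, against 4.54% of all genes (2.52% higher and 2.02% lower). The median log2 fold change was −0.09 over the 49 genes and 0.00074 over all genes, with 38 of the 49 below 0 and a range of −0.33 for CDC7 to 0.22 for CCNE1. At an unadjusted p under 0.05, 9 of the 49 were lower (18.4%, against 10.3% of all genes) and 1 was higher (2.04%, against 10.2%). The values did not overlap with wild-type KDM5A below in 17 genes (34.7%, against 16.2% of all genes) and with it above in 2, CCNE1 and CCND1 (4.08%, against 16.4%). The FEN1 call was lost without any 1 of the 6 libraries compared (adjusted p up to 0.0900 over the alternatives), while 4 genes fell in a fit of only these 6 libraries (CDT1, FEN1, MCM3 and UHRF1).

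Mutant KDM5A was set against empty vector in the same way. Of the 49 genes, 5 rose (CCNE1, RPA2, POLD3, TYMS and SLBP) and 4 fell (CDT1, MCM5, POLD1 and POLE). That is 18.4%, near the 16.5% of all genes that passed (9.48% higher and 7.05% lower). The median log2 fold change was 0.0048 over the 49 genes and −0.0071 over all genes, with a range of −0.37 for POLE to 0.47 for POLD3. The values did not overlap with the mutant above in 10 genes (20.4%, against 23.3% of all genes) and below in 15 (30.6%, against 23.6%).

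In the mutant comparison, the genes that rose had a median exonic length of 2470 bases and those that fell of 6135 bases. A trend with gene length was then taken out, in a fit of only the 14098 genes with an annotated length. CCNE1, RPA2, POLD3, CDT1 and POLD1 still passed there and MCM5, POLE, TYMS and SLBP did not. In these changes of calls the removed trend and the smaller set of genes cannot be told apart. E2F1 and FEN1, which had not passed before, then fell, so that 3 of the 49 rose and 4 fell. Ribosomal protein genes, which are short, moved in the same comparison, with 67 of 76 higher (88.2%, against 9.48% of all genes). Their median log2 fold change was 0.57. The part of gene length in these calls was not tested beyond the values given here. Each of the 9 calls was lost when at least 1 library was left out. With the ribosomal protein share as a covariate 0 of the 49 passed (1 higher and 1 lower at an unadjusted p under 0.05). In that fit 12 of all genes tested passed as higher and 3 as lower. In the values as deposited, without the factor per library, 0 of the 49 rose and 28 fell, where the median log2 fold change of all genes was itself −0.30 and that of the 49 was −0.33.

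Mutant was set against wild-type KDM5A, both in knockout cells. KDM5A itself averaged 23081 scaled FPKM with the mutant and 15096 with wild-type KDM5A, without overlap. The mutation, the plasmid's level and the make-up of the libraries cannot be told apart in this comparison. None of the 49 genes passed, against 0.0562% of all genes (10 genes, with 0.0337% higher and 0.0225% lower). At an unadjusted p under 0.05, 13 of the 49 were higher (26.5%, against 11.01% of all genes) and 3 were lower (6.12%, against 9.14%). The median log2 fold change was 0.09 over the 49 genes and −0.00059 over all genes, and 35 of the 49 were above 0. In the values as deposited the median was −0.13 over the 49 genes and −0.19 over all genes. The 3 smallest p belonged to LIG1 (0.32 ± 0.07, adjusted p = 0.0937), POLD3 (0.54 ± 0.14, adjusted p = 0.102) and RPA2 (0.24 ± 0.07, adjusted p = 0.121). The values did not overlap with the mutant above in 22 genes (44.9%, against 19.5% of all genes) and below in 8 (16.3%, against 19.4%). A p that misses the threshold does not show that the plasmids act alike on these genes.

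**Figure D2:**
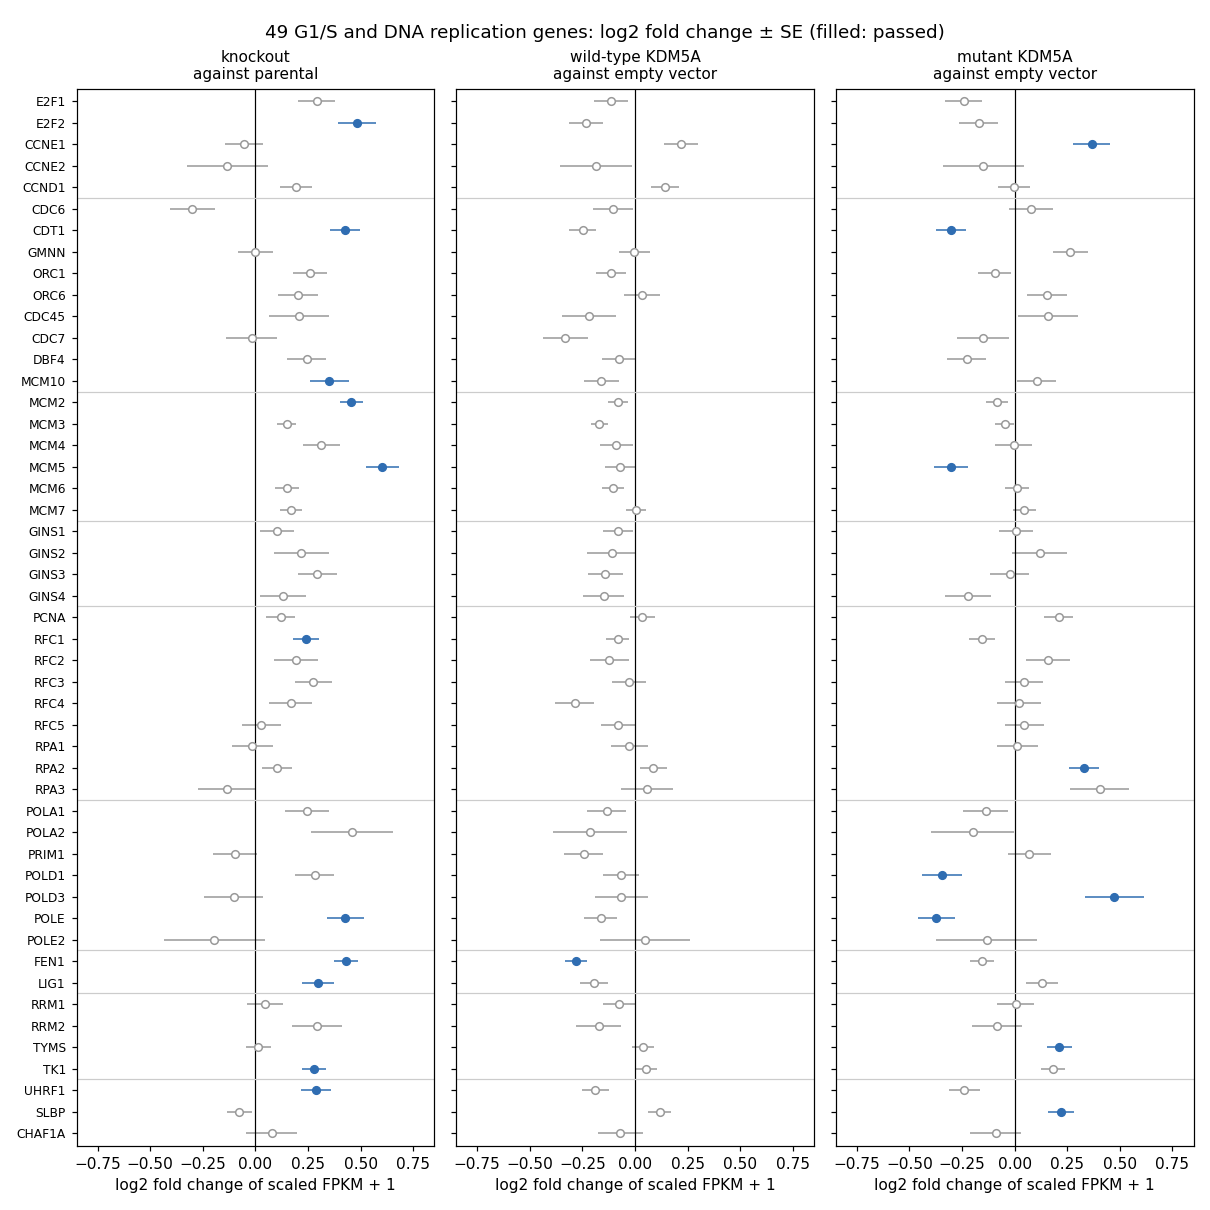
Log2 fold change of scaled FPKM + 1 for each of the 49 genes (rows, ordered by role) in knockout against parental cells and in wild-type or mutant KDM5A against empty vector, with bars for 1 standard error and filled points for genes that passed. The left panel lies mostly right of 0 (39 of 49 genes), the middle one mostly left of it (38 of 49), and the right one on both sides (25 above and 24 below).

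**Figure D3:**
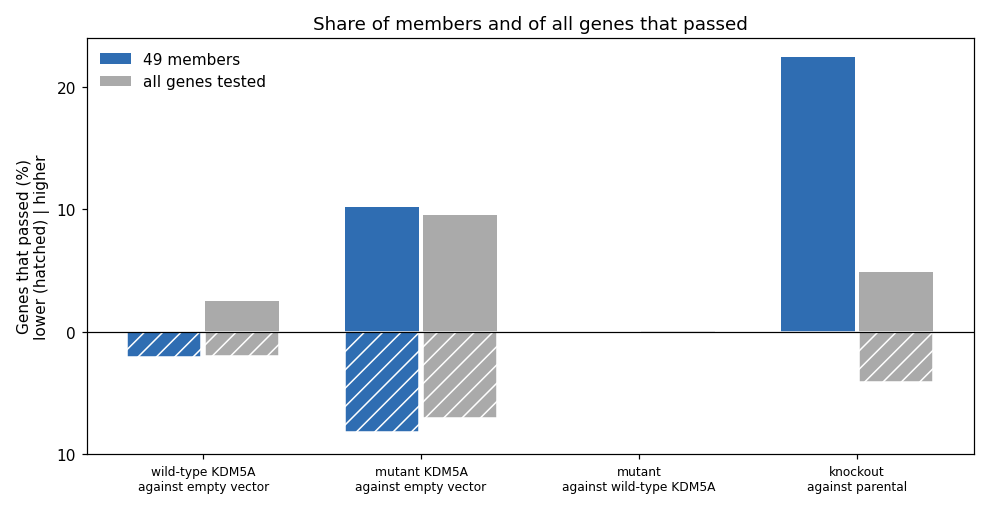
Percent of the 49 genes (blue) and of all genes tested (grey) that passed at an adjusted p under 0.05 in each comparison, with genes that were higher drawn above 0 and genes that were lower drawn hatched below 0. For knockout against parental cells 22.4% of the 49 were higher, against 4.84% of all genes, for mutant against empty vector the shares were 10.2% and 9.48%, and bars for mutant against wild-type KDM5A are too small to see.

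The 3 comparisons that use the knockout empty-vector libraries share them, so their values for a gene are given side by side below and no likeness between them is drawn. In 16 of the 49 genes (32.7%) all 8 knockout libraries lay above both parental libraries, whatever plasmid they carried. Over all genes tested this held for 9.93%. The 16 were E2F2, CDT1, ORC1, ORC6, MCM10, MCM2, MCM4, MCM5, MCM6, MCM7, GINS3, RFC1, RFC3, RPA2, FEN1 and TK1. CDC6 alone lay below both parental libraries in all 8, against 10.1% of all genes. Of the 11 genes that rose in knockout cells, POLE, LIG1 and UHRF1 were the ones in which some library with a KDM5A plasmid lay within or below the parental values.

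Among the G1/S regulators, E2F1 and E2F2 are activating E2F factors, CCNE1 and CCNE2 encode cyclin E, and CCND1 encodes cyclin D1. E2F2 had 9.01 and 8.15 scaled FPKM with mutant KDM5A, 8.13, 8.13 and 8.26 with wild-type KDM5A, 9.40, 9.87 and 10.1 with empty vector, and 7.02 and 6.41 in parental cells. All 8 knockout libraries lay above both parental ones, and those with empty vector were the highest. E2F2 rose in knockout against parental cells by 0.48 ± 0.09 (adjusted p = 0.0147), a 1.46-fold difference of means. It was −0.17 ± 0.09 with mutant KDM5A (adjusted p = 0.235) and −0.23 ± 0.08 with wild-type KDM5A (adjusted p = 0.150), both against empty vector.

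E2F1 had 20.1 and 20.3 scaled FPKM with the mutant, 20.8, 23.2 and 22.6 with wild-type KDM5A, 25.1, 24.0 and 23.2 with empty vector, and 21.3 and 17.8 in parental cells. Knockout cells with empty vector lay above parental cells, but the difference did not pass (0.29 ± 0.09, adjusted p = 0.0773). Against empty vector, E2F1 was −0.24 ± 0.09 with the mutant (adjusted p = 0.0942) and −0.11 ± 0.08 with wild-type KDM5A (adjusted p = 0.473). CCNE1 had 26.8 and 27.9 scaled FPKM with the mutant, 23.6, 24.9 and 25.2 with wild-type KDM5A, 23.3, 19.8 and 19.97 with empty vector, and 23.1 and 20.5 in parental cells. Both mutant values lay above all others, and CCNE1 rose by 0.37 ± 0.09 in mutant against empty vector (adjusted p = 0.0256, with 1.30-fold higher means). With wild-type KDM5A the difference was 0.22 ± 0.08 (adjusted p = 0.165), and between the plasmids it was 0.15 ± 0.09 (adjusted p = 0.384).

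CCNE2 had 12.7 and 6.92 scaled FPKM with the mutant, 9.09, 9.80 and 8.60 with wild-type KDM5A, 11.2, 10.4 and 10.1 with empty vector, and 11.4 and 11.9 in parental cells. It passed in none of the 4 comparisons, and its mutant libraries span the whole range. CCNE2 shares 37.1% of its exonic bases with INTS8 on the opposite strand, whose level averaged 81.3 scaled FPKM, and the strand setting of the counting is not given in the sources used here. CCND1, at 326 to 430 scaled FPKM over the 10 libraries, also passed in none.

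The letters upstream of these genes were searched for an E2F motif, spelled TTTCCCGC, TTTGGCGC, TTTGCCGC or TTTCGCGC, on both strands, in the 250 bases before the RefSeq gene start. RefSeq promoter entries were matched for 41 of the 49 genes. A match was found in 15 of the 41 (36.6%), against 761 of the 27305 promoters in the table (2.79%). Of those 15, 9 are genes whose values are given here in every library, and the stretch around the match is shown for the 5 in which it holds at most 30 exonic bases. They are shown 5′ to 3′ on the gene's strand (RefSeq, GRCh38.p14), with the motif in capitals, in its reverse complement where it lies on the other strand.
E2F1, chr20:33686386-33686448, minus strand: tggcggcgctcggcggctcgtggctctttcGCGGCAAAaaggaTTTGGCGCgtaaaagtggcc
E2F2, chr1:23531238-23531305, minus strand: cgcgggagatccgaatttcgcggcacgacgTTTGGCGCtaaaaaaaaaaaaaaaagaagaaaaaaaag
MCM3, chr6:52284879-52284946, minus strand: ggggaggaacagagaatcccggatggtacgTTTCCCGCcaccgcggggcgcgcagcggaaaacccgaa
PCNA, chr20:5126644-5126711, minus strand: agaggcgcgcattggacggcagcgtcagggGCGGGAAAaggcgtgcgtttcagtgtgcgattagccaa
POLE, chr12:132687343-132687390, minus strand: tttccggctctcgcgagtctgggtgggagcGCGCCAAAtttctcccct
E2F1 alone of these has 2 matches in the stretch shown. In knockout against parental cells, 5 of the 15 genes with a match rose (E2F2, CDT1, POLE, LIG1 and UHRF1; median log2 fold change 0.28), as did 5 of the 26 without one (MCM10, MCM2, RFC1, FEN1 and TK1; median 0.18) and 1 of the 8 with no entry (MCM5; median 0.12). A match describes the letters only, and no test was made between these groups.

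Origins are licensed and fired by 9 of the genes. CDC6 and CDT1 load the helicase, GMNN (geminin) inhibits CDT1, ORC1 and ORC6 are origin recognition subunits, CDC7 and DBF4 form the kinase that fires origins, and CDC45 and MCM10 act in activating the helicase. CDT1 had 76.6 and 77.1 scaled FPKM with the mutant, 83.0, 77.4 and 79.1 with wild-type KDM5A, 89.8, 93.4 and 102 with empty vector, and 74.0 and 67.1 in parental cells. The empty-vector knockout libraries were the highest, the libraries with either plasmid came next and the parental libraries were lowest, with no overlap between these 3 sets. CDT1 rose by 0.43 ± 0.07 in knockout against parental cells (adjusted p = 0.00811, 1.35-fold). It fell by 0.30 on the log2 scale with the mutant against empty vector (standard error 0.07, adjusted p = 0.0212), and it was −0.25 ± 0.06 with wild-type KDM5A (adjusted p = 0.0602). Between the plasmids it was −0.05 ± 0.07 (adjusted p = 0.702).

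CDC6, which works at the same step as CDT1, had 39.5 and 37.4 scaled FPKM with the mutant, 36.9, 29.6 and 35.1 with wild-type KDM5A, 40.7, 34.6 and 34.1 with empty vector, and 44.8 and 45.0 in parental cells. Its parental values were the highest of the 10, the opposite order to CDT1, but the difference did not pass (−0.30 ± 0.11 for knockout against parental, adjusted p = 0.116). MCM10 averaged 17.6 ± 1.03 scaled FPKM in knockout cells with empty vector and 13.6 ± 1.39 in parental cells (SD, n = 3 and 2). It rose by 0.35 ± 0.09 (adjusted p = 0.0491), and the call was lost without any 1 of the knockout libraries with empty vector or wild-type KDM5A. The other 6 genes of this role passed in no comparison. In knockout against parental cells they ranged from −0.02 for CDC7 to 0.26 for ORC1.

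The 6 subunits of the MCM2-7 helicase, which unwinds DNA at the fork, were all above 0 in knockout against parental cells, between 0.15 for MCM3 and 0.60 for MCM5, and MCM2 and MCM5 passed. MCM5 had 85.0 and 79.0 scaled FPKM with the mutant, 94.9, 105 and 89.3 with wild-type KDM5A, 98.9, 105 and 99.4 with empty vector, and 69.8 and 62.9 in parental cells. All 8 knockout libraries lay above the parental ones, and both mutant libraries lay below the 6 other knockout libraries. MCM5 rose by 0.60 ± 0.08 in knockout against parental cells (adjusted p = 0.00326, 1.53-fold) and fell by 0.30 on the log2 scale in mutant against empty vector (standard error 0.08, adjusted p = 0.0346). With wild-type KDM5A it was −0.07 ± 0.07 (adjusted p = 0.649).

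MCM2 had 84.4 and 85.0 scaled FPKM with the mutant, 85.2, 84.5 and 84.6 with wild-type KDM5A, 88.3, 89.5 and 91.5 with empty vector, and 68.2 and 62.2 in parental cells. The libraries with a KDM5A plasmid lay within 84.4 to 85.2, just under those with empty vector and far above the parental ones. MCM2 rose by 0.46 ± 0.05 in knockout against parental cells (adjusted p = 0.00189, 1.38-fold), and was −0.08 ± 0.05 with either plasmid against empty vector (adjusted p = 0.317 for the mutant and 0.375 for wild-type KDM5A). MCM3 had 94.3 and 94.8 scaled FPKM with the mutant, 85.8, 89.6 and 85.1 with wild-type KDM5A, 98.5, 97.7 and 97.0 with empty vector, and 87.7 and 88.6 in parental cells. It was lower with wild-type KDM5A than with empty vector without overlap, and narrowly missed the threshold (−0.17 ± 0.04, adjusted p = 0.0533). The GINS complex, the helicase's partner, had all 4 subunits above 0 in knockout against parental cells, from 0.10 for GINS1 to 0.29 for GINS3, and all 4 below 0 with wild-type KDM5A against empty vector, from −0.15 to −0.08. None of the 4 passed in any comparison.

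**Figure D4:**
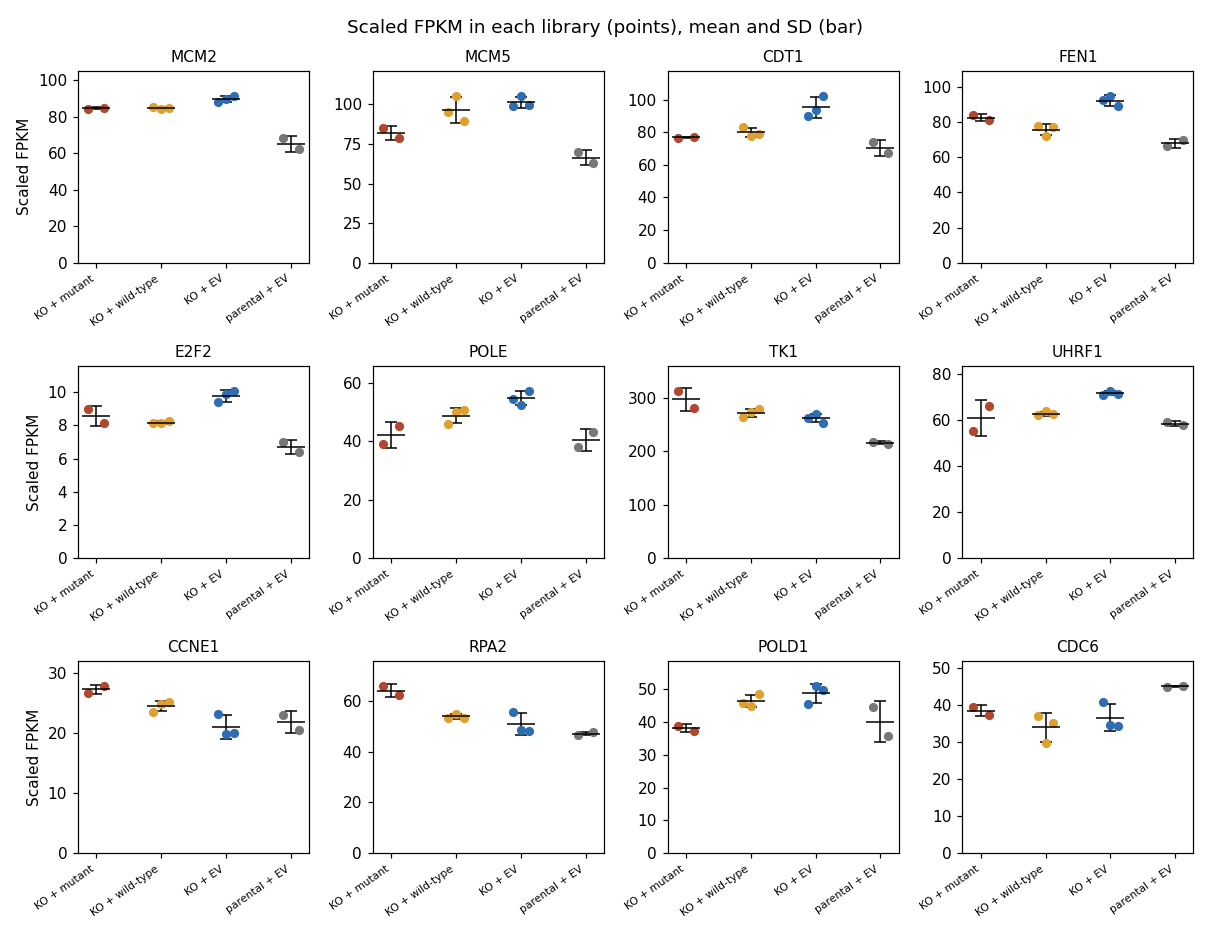
Scaled FPKM of 12 of the genes, with 1 point per library, a line at each group's mean and bars for 1 SD, and the groups from mutant KDM5A on the left to parental on the right. In MCM2 and MCM5 all 8 knockout libraries are above both parental ones, and in CDC6 all 8 are below them.

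The sliding clamp PCNA is loaded onto DNA by replication factor C (RFC1 to RFC5), and RPA coats single-stranded DNA. PCNA had 248 and 232 scaled FPKM with the mutant, 211, 214 and 212 with wild-type KDM5A, 223, 203 and 196 with empty vector, and 182 and 200 in parental cells. The mutant values were the highest, and PCNA passed in none of the comparisons (0.21 ± 0.07 for mutant against empty vector, adjusted p = 0.0655; 0.12 ± 0.07 for knockout against parental, adjusted p = 0.308). RFC1, the large subunit of the loader, had 39.4 and 39.5 scaled FPKM with the mutant, 42.3, 40.3 and 42.2 with wild-type KDM5A, 43.4, 45.9 and 43.0 with empty vector, and 35.7 and 38.8 in parental cells. It rose by 0.24 ± 0.06 in knockout against parental cells (adjusted p = 0.0441), the smallest of the 11 rises. That call was lost without any 1 of the knockout libraries with empty vector or wild-type KDM5A.

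RPA2 had 65.9 and 62.4 scaled FPKM with the mutant, 53.5, 55.1 and 53.5 with wild-type KDM5A, 55.9, 48.7 and 48.2 with empty vector, and 46.7 and 47.7 in parental cells. The mutant libraries lay above all others, and RPA2 rose by 0.33 ± 0.07 against empty vector (adjusted p = 0.0165, 1.26-fold). In the values as deposited, without the factor per library, this difference was −0.0037. The other 6 genes of this role passed in no comparison, and in knockout against parental cells they ranged from −0.14 for RPA3 to 0.28 for RFC3.

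Of the 7 genes for polymerases and primase, POLE, the catalytic subunit of the leading-strand polymerase epsilon, had 39.0 and 45.2 scaled FPKM with the mutant, 45.7, 49.8 and 50.7 with wild-type KDM5A, 54.6, 52.4 and 57.2 with empty vector, and 37.9 and 43.2 in parental cells. The mutant and parental values overlap, and both lie below those with wild-type KDM5A or empty vector. POLE rose by 0.43 ± 0.09 in knockout against parental cells (adjusted p = 0.0203, 1.35-fold) and fell by 0.37 on the log2 scale in mutant against empty vector (standard error 0.09, adjusted p = 0.0227). POLE has the longest exonic length of the 49, at 16609 bases.

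POLD1, the catalytic subunit of the lagging-strand polymerase delta, had 39.0 and 37.2 scaled FPKM with the mutant, 45.8, 44.9 and 48.6 with wild-type KDM5A, 45.6, 51.0 and 49.7 with empty vector, and 44.5 and 35.7 in parental cells. It fell by 0.35 on the log2 scale in mutant against empty vector (standard error 0.09, adjusted p = 0.0366), and the difference was 0.037 with the ribosomal protein share as a covariate. POLD3, another subunit of the same enzyme, had 8.82 and 12.7 scaled FPKM with the mutant, 6.88, 6.92 and 7.15 with wild-type KDM5A, 7.01, 7.22 and 7.85 with empty vector, and 8.36 and 7.59 in parental cells. Its rise of 0.47 ± 0.14 in mutant against empty vector (adjusted p = 0.0486) had its highest value in mutant library 2, and the call was lost without that library and without any other but mutant library 1 (adjusted p over the alternatives up to 0.593). POLA1, POLA2, PRIM1 and POLE2 passed in no comparison, and in knockout against parental cells they ranged from −0.20 for POLE2 to 0.46 for POLA2, whose standard errors were 0.24 and 0.20.

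Okazaki fragments are matured by FEN1 and by the ligase LIG1. FEN1 had 84.1 and 81.0 scaled FPKM with the mutant, 77.5, 72.2 and 77.3 with wild-type KDM5A, 92.4, 95.0 and 88.9 with empty vector, and 66.2 and 69.9 in parental cells. The 4 groups did not overlap, with empty vector highest, then mutant, then wild-type KDM5A, then parental cells. FEN1 rose by 0.43 ± 0.06 in knockout against parental cells (adjusted p = 0.00323, 1.35-fold) and fell by 0.28 on the log2 scale with wild-type KDM5A against empty vector (standard error 0.05, adjusted p = 0.0205). With the mutant against empty vector it was −0.16 ± 0.06 (adjusted p = 0.0970), and between the plasmids it was 0.13 ± 0.06 (adjusted p = 0.260). FEN1 shares 6.70% of its exonic bases with TMEM258 on the opposite strand, whose level averaged 172 scaled FPKM.

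LIG1 had 41.8 and 44.9 scaled FPKM with the mutant, 33.1, 36.7 and 33.5 with wild-type KDM5A, 40.1, 39.2 and 39.2 with empty vector, and 30.01 and 34.0 in parental cells. The wild-type and parental values overlap, and both lie below those with the mutant or empty vector. LIG1 rose by 0.30 ± 0.07 in knockout against parental cells (adjusted p = 0.0408). That call was lost without any 1 of the knockout libraries with empty vector or wild-type KDM5A. Against empty vector, LIG1 was −0.19 ± 0.07 with wild-type KDM5A (adjusted p = 0.143).

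Nucleotides for replication come from ribonucleotide reductase (RRM1 and RRM2), thymidylate synthase (TYMS) and thymidine kinase (TK1). TK1 had 314 and 283 scaled FPKM with the mutant, 264, 274 and 279 with wild-type KDM5A, 264, 270 and 254 with empty vector, and 218 and 215 in parental cells. All 8 knockout libraries lay above the parental ones, and TK1 rose by 0.28 ± 0.06 in knockout against parental cells (adjusted p = 0.0205). TYMS had 198 and 179 scaled FPKM with the mutant, 160, 174 and 166 with wild-type KDM5A, 164, 157 and 166 with empty vector, and 159 and 162 in parental cells. It rose by 0.21 ± 0.06 in mutant against empty vector (adjusted p = 0.0416), and the difference was −0.13 in the values as deposited. TYMS shares 39.1% of its exonic bases with ENOSF1 on the opposite strand.

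RRM2 had 199 and 204 scaled FPKM with the mutant, 195, 179 and 194 with wild-type KDM5A, 201, 228 and 212 with empty vector, and 205 and 148 in parental cells. The 2 parental libraries differ more from each other than any other group's libraries do, and RRM2 passed in none of the comparisons (0.29 ± 0.12 in knockout against parental cells, adjusted p = 0.164). RRM1 also passed in none.

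Of the 3 genes that act on S-phase chromatin, UHRF1, which keeps up DNA methylation after replication, had 55.2 and 66.1 scaled FPKM with the mutant, 61.9, 63.6 and 62.3 with wild-type KDM5A, 70.7, 72.5 and 71.3 with empty vector, and 59.0 and 57.7 in parental cells. It rose by 0.29 ± 0.07 in knockout against parental cells (adjusted p = 0.0406). That call was lost without any 1 of the knockout libraries with empty vector or wild-type KDM5A. With either plasmid UHRF1 values lay below those with empty vector (−0.24 ± 0.07 for the mutant, adjusted p = 0.0532, and −0.19 ± 0.06 for wild-type KDM5A, adjusted p = 0.139). SLBP, which binds histone mRNA, had 98.5 and 95.1 scaled FPKM with the mutant, 93.2, 90.2 and 86.9 with wild-type KDM5A, 88.1, 78.9 and 82.1 with empty vector, and 86.1 and 88.9 in parental cells. It rose by 0.22 ± 0.06 in mutant against empty vector (adjusted p = 0.0386), and the difference was −0.12 in the values as deposited. CHAF1A, a subunit of the histone chaperone CAF-1, passed in none of the comparisons.

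Other G1/S and replication genes, a list of 45 outside the 49, had 44 members tested. In knockout against parental cells, 7 rose and 1 fell (18.2%, against 8.94% of all genes), with a median log2 fold change of 0.10. POLE3, a subunit of polymerase epsilon, averaged 72.3 ± 2.28 scaled FPKM in knockout and 56.6 ± 2.86 in parental cells (SD, n = 3 and 2; adjusted p = 0.00621), and MYBL2, a transcription factor, averaged 69.8 ± 3.49 in knockout and 53.9 ± 2.35 in parental cells (adjusted p = 0.00748). DONSON, a replication fork protein, was the 1 that fell. With the mutant against empty vector, 1 of the 44 rose and 4 fell (11.4%, against 16.5% of all genes). ORC3, an origin recognition subunit, rose by 0.60 ± 0.09 (adjusted p = 0.00612), and DUT, DNMT1, CCNA2 and TOPBP1 fell. With wild-type KDM5A against empty vector, 0 of the 44 passed in limma, against 4.54% of all genes. At an unadjusted p under 0.05, 2 were higher and 8 lower (of all genes, 10.2% and 10.3%). TICRR had the smallest p (−0.35 ± 0.09, adjusted p = 0.0563). Between the plasmids 0 of the 44 passed in limma, against 0.0562% of all genes. At an unadjusted p under 0.05, 6 of the 44 were higher and 1 lower (of all genes, 11.01% and 9.14%).

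Among 12 inhibitors of G1/S and pocket proteins, CDKN1A, the CDK inhibitor p21, was the 1 gene that passed with wild-type KDM5A against empty vector (8.33%, against 4.54% of all genes). It averaged 398 ± 1.73 scaled FPKM with wild-type KDM5A and 317 ± 4.58 with empty vector (SD, n = 3 each), and rose by 0.33 ± 0.07 (adjusted p = 0.0354). With the mutant it averaged 350 ± 34.7 (SD, n = 2) and did not pass (0.14 ± 0.08, adjusted p = 0.258). In knockout against parental cells, CDKN2A and E2F4 rose and CDKN1C and E2F5 fell (33.3% of the 12, against 8.94% of all genes). CDKN1C, the CDK inhibitor p57, averaged 12.8 ± 1.25 scaled FPKM in knockout and 23.2 ± 5.39 in parental cells (adjusted p = 0.0153), and E2F5, a repressive E2F factor, averaged 7.11 ± 0.759 in knockout and 12.4 ± 2.38 in parental cells (adjusted p = 0.0177).

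The G2/M genes, which act after replication, were counted beside the 49. With wild-type KDM5A against empty vector, 6 of 40 fell and 0 rose (CDC25B, CDK1, TOP2A, NEK2, UBE2C and MKI67). That is 15%, against 4.54% of all genes, with a median log2 fold change of −0.17 over the 40. With the mutant against empty vector, 4 rose and 10 fell (35%, against 16.5% of all genes, median −0.15). In knockout against parental cells, 5 rose and 1 fell (15%, against 8.94% of all genes, median 0.06). Between the plasmids, 0 of the 40 passed in limma, against 0.0562% of all genes. At an unadjusted p under 0.05, 9 of the 40 were higher and 3 lower (of all genes, 11.01% and 9.14%).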

How the data were processed

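RNA was sequenced from 10 libraries of sorted HCT116 cells. The authors deposited 1 table per library of log2 values, per the file headers of FPKM, for 60141 loci. Taken off the log2 scale and less 1, each library sums to about 1000000, so the values share 1 total. Cufflinks 2.2.1, GATK 4.1.2, STAR 2.7.1a, Picard and the build GRCh38 are named, without order, per the submitters' processing notes. Annotation release, strand setting and the sequencer used for each library are not given in the sources used here. No counts were used here, and depth and counting precision are unknown.

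Values were taken off the log2 scale, summed by symbol and divided by a median-ratio factor over 13651 genes. Genes at 1 or more in at least 2 libraries were kept (17779). limma 3.58.1 in R 4.3.3 (trend, all 10 libraries in 1 fit) tested log2(value + 1), two-sided, with Benjamini-Hochberg adjustment over all genes kept and a threshold of 0.05. It was tested on simulated data with 200 changed genes. It found 36 to 48% of changes of 0.5 on the log2 scale, and 73 to 86% of changes of 1, with 6 to 12 false calls. The simulated noise was independent between genes and libraries, without shifts in make-up, and the changed genes lay above a set level. These shares need not hold for the tests above. Python 3.11.15 with numpy 2.4.6, pandas 2.3.3 and matplotlib 3.10.9 did the rest, with GENCODE 29 for exonic lengths and overlaps.

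The 49 genes, the other lists and the alternatives were chosen with earlier results of these data known. Values in every library are given for members that passed (at most the 10 of smallest p in a comparison), for the 3 of smallest p where fewer passed, and for E2F1, CCNE1, CCNE2, CDC6, MCM2, PCNA and RRM2. From other lists, up to 4 genes of smallest p per comparison are named. TOPBP1, UBE2C and MKI67 were named after their values were seen. PCLAF was looked up under its older symbol KIAA0101. Libraries of 1 group share 0.483 to 1.07% of values exactly. Those of different groups share at most 2.73% (knockout empty-vector library 1 and parental library 1), so none was deposited more than once.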

Additional observations from a re-analysis of the deposited data

How the results depend on the processing

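Depth is unknown, so no counting error could be set beside a value, and groups of 2 or 3 libraries limit every test. The median log2 fold change of the 49 genes kept its sign under every alternative for knockout against parental cells, with 0.27 in the values as deposited. It was −0.20, −0.33 and −0.13 there for wild-type against empty vector, mutant against empty vector and mutant against wild-type KDM5A, where the medians of all genes were −0.10, −0.30 and −0.19, and 0.07 for knockout against parental. The genes of all tested that were higher and lower were then 123 and 613, 466 and 6149, 110 and 1386, and 972 and 374, in the same order, and 294 and 320, 887 and 1223, 5 and 1, and 911 and 760 after quantile normalization. The cause of each change below was not tested.

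For wild-type KDM5A against empty vector, members that fell numbered 5 as deposited, 2 after quantile normalization, 2 without a filter, 3 at a mean of at least 5, 4 in a fit of only the libraries compared (1689 of all genes), 4 without both mutant libraries and parental library 2 (1690 of all genes), and 3 at an adjusted p under 0.1 (1570 of all genes). For the mutant against empty vector, members that rose and fell numbered 0 and 28 as deposited (6615 of all genes), 3 and 7 after quantile normalization (median −0.082), 2 and 1 without a filter, 0 and 2 with only the libraries compared (1838 of all genes), 0 and 0 with the ribosomal protein share (15 of all genes), and 9 and 7 at an adjusted p under 0.1 (4483 of all genes). As deposited, RPA2 was −0.0037, TYMS −0.13 and SLBP −0.12, TYMS was −0.0053 after quantile normalization, and POLD1 was 0.037 with the ribosomal protein share.

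For mutant against wild-type KDM5A, all genes called numbered 1496 as deposited, with 5 members lower, 6 after quantile normalization (median of the members 0.040), 93 without a filter, 3 at a mean of at least 5, 214 with only the libraries compared, 1 with the ribosomal protein share, and 643 at an adjusted p under 0.1, with 1 member higher. For knockout against parental cells, members that rose numbered 3 with only the libraries compared (464 of all genes), 0 with the ribosomal protein share (96 of all genes), 7 without both mutant libraries and parental library 2 (1047 of all genes) and 19 at an adjusted p under 0.1 (2727 of all genes). The mutant comparisons have no value without both mutant libraries.

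Same-numbered libraries of different groups deviated together with correlations of −0.0892 to 0.0509 over 13 pairs, so the numbers share only a name. With the replicate number as a block, genes called numbered 214, 1109, 1 and 556, in the order of the comparisons above, members that fell with wild-type KDM5A 0, members that rose and fell with the mutant 0 and 0, and members that rose in knockout cells 4. The fits with a length trend removed were chosen after seeing the data and held only the 14098 genes with an annotated length. Without the block, 3 members fell with wild-type KDM5A, 3 rose and 4 fell with the mutant, and 5 genes were called between the plasmids. With the length trend and the replicate block together, genes called numbered 365, 1273, 0 and 860, and members 0 lower, 0 and 0, and 5 higher.

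With each library left out in turn, genes called ranged from 178 to 1058, 1215 to 3466, 5 to 970 and 685 to 1904. Members that fell with wild-type KDM5A ranged from 0 to 3 (median −0.13 to −0.089), members that rose with the mutant from 0 to 5 and fell from 0 to 4 (median −0.058 to 0.055), members higher between the plasmids from 0 to 1 (median 0.053 to 0.14), and members that rose in knockout cells from 5 to 11 (median 0.14 to 0.21).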
